A study of Mus musculus with 6 samples.

Results

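Inflammatory cytokines were followed in mouse mammary tumour grafts through 10 genes of the interleukin 1 family, the interleukin 15 system and the TNF family. They were chosen by gene symbol and make up 10 of the 39179 gene identifiers in the count files: Il1a, Il1b, Il1rn, Il18, Il18bp, Il33, Il15, Il15ra, Tnf and Tnfsf10. The grafts were RNA-sequenced as 6 libraries. Of these, 3 are labelled WT and 3 AXL KO, and the groups were compared to ask how grafts of AXL-/- cells, which lack the receptor tyrosine kinase AXL, differ from grafts of AXL+/+ cells. All grafts are of MMTV-Neu cells, a model in which a mouse mammary tumour virus promoter drives the Neu (ErbB2) oncogene in mammary epithelium, and all are labelled as strain FVB with no treatment, time or age given. The knockout is a property of the grafted cells, while the host is described only by its strain, so vessels, stroma and leukocytes of the host are counted together with tumour cells. In such bulk RNA, fewer cells of a type and less RNA per cell cannot be told apart. The labels do not say whether the 3 libraries of a group come from separate animals or whether each group rests on a single cell isolate, so p-values cover only the spread between these libraries, which may be technical.

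Interleukin 1 alpha and beta, interleukin 18 and interleukin 33 are related cytokines that signal through paired receptor chains to the adaptor MyD88 and on to NF-kappaB. Interleukin 1 beta and interleukin 18 are made as precursors that inflammasome caspases cut, while interleukin 33 is a nuclear protein of barrier and stromal cells that is released on damage. Secreted inhibitors hold the family in check: the receptor antagonist encoded by Il1rn blocks the interleukin 1 receptor, and the binding protein encoded by Il18bp captures interleukin 18. Interleukin 15 is presented in trans on its own alpha receptor, encoded by Il15ra, to NK cells and memory T cells that carry the shared beta and common gamma chains. TNF acts through a pair of receptors on inflammation and survival, and TRAIL, encoded by Tnfsf10, is a death ligand carried by NK cells and induced by interferons in many cells.

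The libraries held 26541009 to 32491807 counts in genes. Axl, the targeted gene, did not set the groups apart: its counts were 1906, 1761 and 1507 in the WT libraries and 1360, 2396 and 1767 in the AXL KO libraries, with a log2 fold change of -0.01 ± 0.16 (SE). The deleted part of the gene is not stated, so these counts check no genotype, and all directions below are between libraries as labelled. Tumour epithelium was present in all 6 libraries, with Erbb2 at 7190 ± 654 CPM (the unit of TMM-scaled counts, ± SD, n = 3) in WT and 9203 ± 1006 CPM in AXL KO, and with Epcam at 1997 ± 48.7 and 1387 ± 44.8 CPM. The luminal keratin gene Krt19 was near 0 in both groups, at 0.0459 ± 0.0534 and 0.0933 ± 0.134 CPM.

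Promoter sequence is given for Tnfsf10 and Tnf, the pair of TNF family ligands among the 10 genes, because the former was called between the groups and the latter was not. RefSeq start sites of GRCm38.p6 were on hand for 9 of the 10 genes, all but Il15, in 13 windows of 250 bases before the start. The stretches for both genes are shown 5′ to 3′ on the strand of the gene. Capitals mark matches to either of the motifs found there, the interferon regulatory factor core AANNGAAA (reverse complement TTTCNNTT) and a kappaB-like motif GGNNNTTCC (reverse complement GGAANNNCC). Tnfsf10 is at chr3:27316827-27317057, + strand, its last 30 bases lie past the first start that GENCODE annotates, and it stops short of the RefSeq start, which lies farther downstream. Tnf is at chr17:35202008-35202257, - strand.
Tnfsf10: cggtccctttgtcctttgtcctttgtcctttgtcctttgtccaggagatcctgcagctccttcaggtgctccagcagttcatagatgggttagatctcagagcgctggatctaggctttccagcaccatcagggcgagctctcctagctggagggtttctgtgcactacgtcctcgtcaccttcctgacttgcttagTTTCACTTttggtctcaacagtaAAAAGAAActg
Tnf: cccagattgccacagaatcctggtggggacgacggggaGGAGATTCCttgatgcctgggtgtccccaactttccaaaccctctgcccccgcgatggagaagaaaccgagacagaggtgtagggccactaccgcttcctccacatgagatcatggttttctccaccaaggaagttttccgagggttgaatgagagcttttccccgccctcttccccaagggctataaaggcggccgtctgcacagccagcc
Tnfsf10 held 2 matches to the interferon regulatory factor core, one per strand, at 53 to 46 and 30 to 23 bases before the RefSeq start. Against the first GENCODE start (27317028) the former spans that start and the latter lies past it, inside the transcript. Tnf held none, and 1 kappaB-like match at 212 to 204 bases before the start. The core was present in 7 of the 13 windows, those of Il15ra, Il18, Il1b, Il1rn, Il33 and Tnfsf10, and in 21.3% of all 32851 RefSeq windows of this length. The kappaB-like motif was present in 3 of the 13 windows, of Il18bp, Il1rn and Tnf, and in 15.7% of all windows. The palindromic GAS motif TTCNNNGAA was in no window of the 9 genes and in 7.02% of all windows. No match overlapped another. A match describes letters only, since no binding was measured, and the windows of Il1rn partly overlap each other.

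Of the 10 genes, 3 were higher in the AXL KO libraries and none lower: Tnfsf10, Il18bp and Il15 rose, and the other 7 did not pass the test (quasi-likelihood test of edgeR, p adjusted by Benjamini-Hochberg over 14850 tested genes, threshold 0.05). Across all tested genes 37.4% were called, 19.1% as higher and 18.3% as lower, so 3 of 10 is a share near that of the transcriptome. The WT and AXL KO libraries did not overlap for the same 3 genes, against 52.2% of all tested genes. The median log2 fold change of the 10 genes was 0.22, and that of all tested genes was 0.00. All 10 genes passed the filter on low counts. A count of 0 lower genes depended on the test: with DESeq2, with limma-voom, without a filter on low counts, or without AXL KO replicate 2, 1 gene was lower, which was Il33. At an unadjusted p under 0.05 edgeR likewise had 1 gene lower, Il33.

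**Figure D1:**
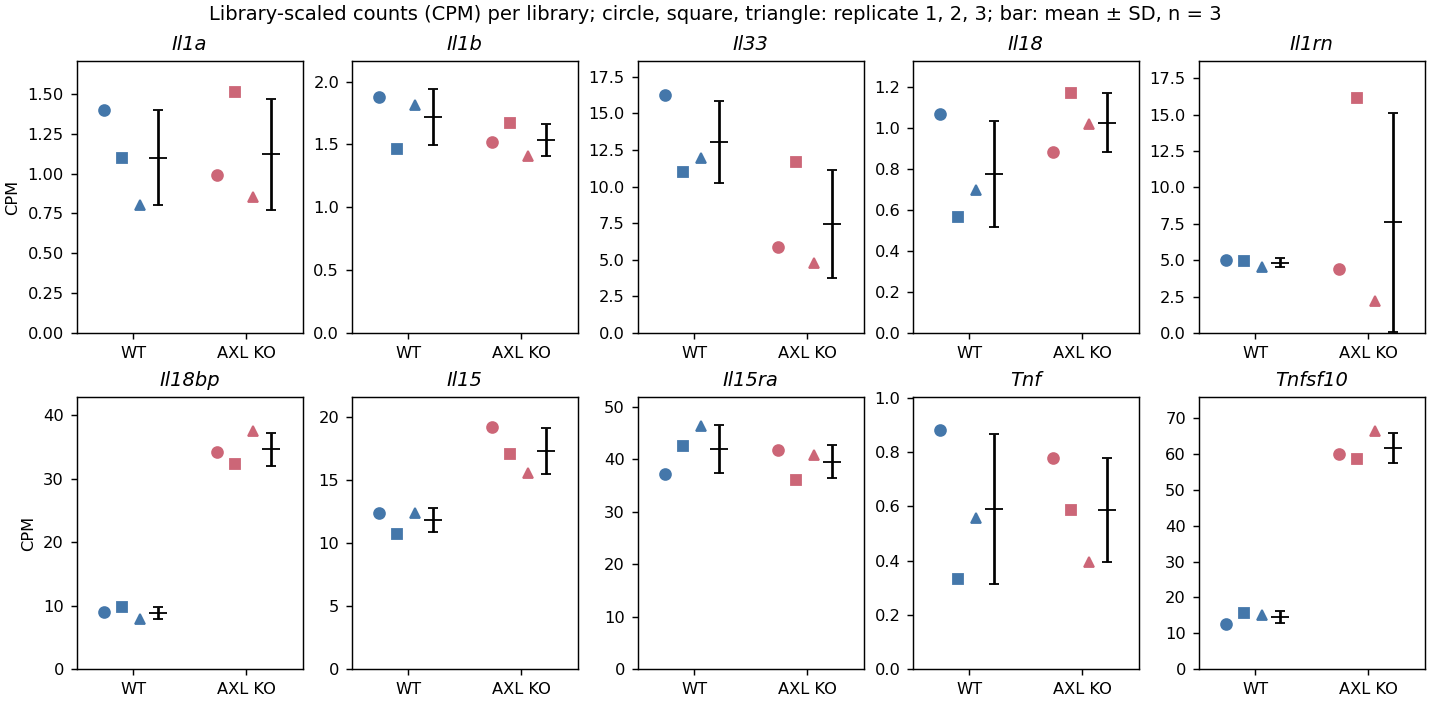
Library-scaled counts (CPM, y axis, from 0) of the 10 genes in the 3 WT (blue) and 3 AXL KO (red) libraries, 1 symbol per replicate number, with the mean ± SD of each group beside the points. The groups are separate for Il18bp, Il15 and Tnfsf10, and 1 AXL KO library (square, replicate 2) stands far above the other 5 for Il1rn.

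Among the ligands of the TNF family, TRAIL rose and TNF did not. Tnfsf10 (chromosome 3, 27317028 to 27342427) was counted at 12.6, 15.6 and 15.2 CPM in WT and 60.1, 58.6 and 66.4 CPM in AXL KO. Every AXL KO library was above every WT library, and the 3 libraries of each group were close together. The mean went from 14.5 ± 1.6 to 61.7 ± 4.12 CPM (SD, n = 3), a 4.26-fold rise with a log2 fold change of 2.09 ± 0.10 (SE; edgeR adjusted p = 4.91e-06). Tnf (chromosome 17, 35199381 to 35202007) had only 10 to 24 counts in any library, or 0.332 to 0.883 CPM in WT and 0.394 to 0.779 CPM in AXL KO. Its groups overlapped completely, at a log2 fold change of -0.00 (95% interval -0.92 to 0.92), so changes within it were not detectable at this depth. In the authors' deposited table the log2 fold changes were 2.07 for Tnfsf10 and -0.01 for Tnf, turned to the direction of AXL KO over WT.

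Of the pair of secreted inhibitors, Il18bp rose, and Il1rn was set by 1 library. Il18bp (chromosome 7, 102014885 to 102018690) was at 8.98, 9.77 and 7.81 CPM in WT and at 34.2, 32.3 and 37.5 CPM in AXL KO. The groups were far apart. Its mean went from 8.85 ± 0.98 to 34.7 ± 2.60 CPM, 3.91-fold, with a log2 fold change of 1.97 ± 0.11 (SE; edgeR adjusted p = 8.58e-06). It overlaps Numa1, a mitotic apparatus gene on the opposite strand, by 80 bases at its 3′ end. Numa1 had 5638 to 7691 counts in WT and 7716 to 8543 in AXL KO libraries, and the use of strand in counting is not stated.

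Il1rn (chromosome 2, 24336853 to 24351494) was at 5.04, 4.95 and 4.50 CPM in WT. In AXL KO replicates 1, 2 and 3 it was at 4.39, 16.2 and 2.20 CPM. The WT libraries lay close together, AXL KO replicate 2 was the highest of all 6 libraries and the other AXL KO libraries were the lowest 2. Its log2 fold change of 0.66 had a 95% interval of -0.66 to 1.98 (edgeR adjusted p = 0.401). It became -0.55 without AXL KO replicate 2, 1.1 without AXL KO replicate 3, 0.19 with limma-voom and 0.23 with a replicate block, and passed the test in no refit. The authors' deposited table gives Il1rn no p-value.

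None of the 4 genes for agonist cytokines of the interleukin 1 family passed the test, and Il33 came nearest to it. Il33 (chromosome 19, 29925114 to 29960718) was at 16.3, 11 and 11.9 CPM in WT and at 5.84, 11.7 and 4.79 CPM in AXL KO. AXL KO replicates 1 and 3 lay below every WT library, while replicate 2 lay among them. The means were 13.0 ± 2.82 and 7.44 ± 3.71 CPM, with a log2 fold change of -0.81 ± 0.31 (SE; edgeR adjusted p = 0.0675). It was called lower with DESeq2 (-0.82, adjusted p = 0.0144), with limma-voom (-0.88, adjusted p = 0.0399), without a filter on low counts (-0.80, edgeR adjusted p = 0.0354) and without AXL KO replicate 2 (-1.29, edgeR adjusted p = 0.00156). Over the 11 refits its adjusted p ran from 0.00156 to 0.190, and 4 of them called it. The authors' deposited table has -0.79 with an adjusted p of 0.0148.

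Il18, Il1a and Il1b were scarce, with 17 to 54 counts in any library. Il18 (chromosome 9, 50554827 to 50581840) was at 0.565 to 1.07 CPM in WT and at 0.885 to 1.17 CPM in AXL KO. The groups overlapped, and a 95% interval of -0.24 to 1.07 surrounded a log2 fold change of 0.41. Il1b (chromosome 2, 129364570 to 129371139) was at 1.46 to 1.88 CPM in WT and 1.41 to 1.67 CPM in AXL KO, with an interval from -0.61 to 0.29 around -0.16. Il1a (chromosome 2, 129299610 to 129309972) was at 0.802 to 1.4 CPM in WT and 0.854 to 1.51 CPM in AXL KO, with an interval from -0.65 to 0.72 around 0.04. The Il1a gene lies across Gm14023, a noncoding gene on the opposite strand, over 8217 bases. Gm14023 had 10 or 11 counts in the WT libraries and 22 to 35 in the AXL KO libraries, as many as Il1a itself in some. The use of strand in counting is not stated, and the effect of this overlap on the Il1a counts was not tested.

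Interleukin 15 rose by less than 2-fold while its alpha receptor did not pass the test. Il15 (chromosome 8, 82331632 to 82403222) was at 12.4, 10.8 and 12.4 CPM in WT and at 19.2, 17.1 and 15.6 CPM in AXL KO. The lowest AXL KO library was above the highest WT library. The mean went from 11.8 ± 0.94 to 17.3 ± 1.82 CPM, 1.46-fold, with a log2 fold change of 0.55 ± 0.12 (SE; edgeR adjusted p = 0.00683). Il15ra (chromosome 2, 11705290 to 11734317) was at 37.2, 42.5 and 46.4 CPM in WT and at 41.9, 36.0 and 40.8 CPM in AXL KO. These ranges overlapped, and the 95% interval of the log2 fold change ran from -0.32 to 0.14 around -0.09.

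The relation within each library of a cytokine to its partner was also measured, from RPKM, the CPM per kilobase of the gene's exons. Il15 per Il15ra was 0.655, 0.498 and 0.525 in WT and 0.903, 0.935 and 0.752 in AXL KO, higher in all 3 AXL KO libraries (1.54-fold, exact permutation test, two-sided, p = 0.1). Il18bp per Il18 was 2.87, 5.89 and 3.82 in WT and 13.2, 9.39 and 12.5 in AXL KO, again without overlap (2.79-fold, exact permutation test, two-sided, p = 0.1). With 3 libraries against 3 this test cannot go below 0.1. Il1rn per summed Il1a and Il1b was 0.538 to 0.677 in WT, and 0.610, 1.78 and 0.339 in AXL KO replicates 1, 2 and 3, with overlapping groups (exact permutation p = 0.8). These 3 relations were chosen after the values of the genes were seen, and adjusted by Benjamini-Hochberg over the 3 the exact p was 0.15, 0.15 and 0.8.

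**Figure D2:**
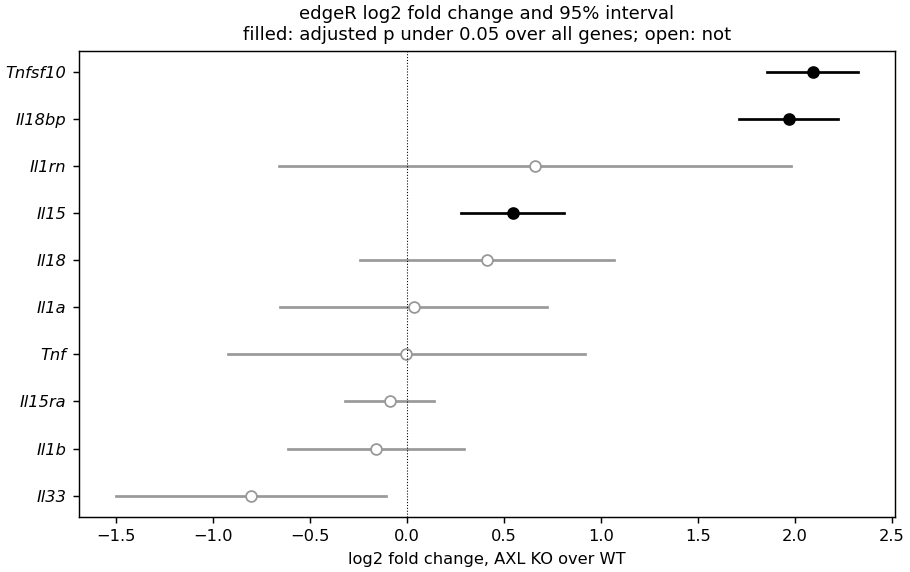
Log2 fold change of AXL KO over WT (x axis) with its 95% interval from edgeR for each of the 10 genes, filled where the adjusted p over all tested genes is under 0.05. Tnfsf10 and Il18bp lie near 2 with short intervals, Il15 lies at 0.55, and the widest interval is that of Il1rn.

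Per length, Il15ra was the most abundant of the 10 transcripts in WT at 9.46 ± 1.03 RPKM, and Tnf the least at 0.361 ± 0.169 RPKM in WT and 0.358 ± 0.117 RPKM in AXL KO. In WT the order was Il15ra, Il15 (5.24 RPKM), Il33 (4.52), Il18bp (2.93), Tnfsf10 (2.75), Il1b (0.900), Il1rn (0.873), Il18 (0.753), Il1a (0.557) and Tnf. Ranges of neighbours did not overlap between Il15ra and Il15, Il33 and Il18bp, and Tnfsf10 and Il1b, and all other neighbours overlapped. In AXL KO the order opened with Tnfsf10 (11.7 RPKM) and Il18bp (11.5 RPKM), which overlapped, followed by Il15ra (8.90 RPKM) and Il15 (7.66 RPKM), which overlapped as well. Tnfsf10 stood above 35.3% of tested genes in WT and above 70.1% in AXL KO, and Il18bp above 36.5% and 69.5%. The length used bears on these levels: over the longest transcript in place of all exons, Il15ra was at 18.2 RPKM and Il1rn at 1.89 RPKM in WT. In AXL KO the order then changed and Il15ra came first at 17.1 RPKM, ahead of Il18bp at 13.4 and Tnfsf10 at 12.4 RPKM.

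Over the 6 libraries the closest profile to Tnfsf10 by Pearson correlation of log2 CPM was that of Tdrd7 (r = 0.9999), followed by Gm2619 and Gm2666. For Il18bp it was Nmi (r = 0.999), followed by the guanylate-binding protein gene Gbp4 and the integrin gene Itgal. For Il15 they were 2410133F24Rik (r = 0.997), Palmd and Gm11766. With 2 groups in 6 libraries such values are common: 1218, 1140 and 199 other genes had an r above 0.95 with Tnfsf10, Il18bp and Il15.

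Receptors and signalling genes of the interleukin 1 family moved in both directions. Of 24 listed genes 21 were tested, 8 were higher and 3 lower, against 19.1% and 18.3% of all tested genes, and their median log2 fold change was 0.17. These counts depended on single libraries: 3 were higher without AXL KO replicate 3, 4 without WT replicate 3 and 5 without WT replicate 2, and 1 was lower without WT replicate 3 or AXL KO replicate 1. The chains of the interleukin 18 receptor were called in opposite directions. Il18r1, the ligand-binding chain, was at 13.5, 14.0 and 8.30 CPM in WT and 3.47, 6.33 and 3.15 CPM in AXL KO, a log2 fold change of -1.46 ± 0.29 (SE; edgeR adjusted p = 0.00476). Il18rap, the accessory chain, went from 0.418 ± 0.0625 to 1.79 ± 0.358 CPM, 4.24-fold (edgeR adjusted p = 0.000551). Neither chain overlapped between the groups.

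Il1r1, the signalling receptor of interleukin 1, fell from 13.4 ± 1.24 to 7.73 ± 2.78 CPM (log2 fold change -0.79, edgeR adjusted p = 0.0219), but not without WT replicate 1 (adjusted p = 0.0535) or 3 (0.0573), or without AXL KO replicate 1 (0.0785) or 3 (0.0754). Il1rl1, the receptor of interleukin 33, was at 0.95 ± 0.573 and 1.26 ± 0.429 CPM and did not pass the test. Casp4, the caspase that senses cytosolic lipopolysaccharide, rose 2.10-fold, from 12.8 ± 3.42 to 26.9 ± 2.45 CPM (edgeR adjusted p = 0.00177). Casp1, which cuts the precursors of interleukin 1 beta and interleukin 18, rose 1.32-fold (edgeR adjusted p = 0.0185), with a call that ended without WT replicate 2 (0.0506) or AXL KO replicate 3 (0.0664). Il1f5, the interleukin 36 receptor antagonist, rose 3.54-fold from 0.699 ± 0.0725 to 2.49 ± 0.770 CPM, while of the interleukin 36 genes Il1f9 had 0 to 6 counts and Il1f6 and Il1f8 had none in any library.

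The receptor of interleukin 15 rose in its shared chains. Il2rb, the beta chain through which interleukin 15 and interleukin 2 signal, was at 0.625, 1.99 and 0.697 CPM in WT and at 10.1, 9.23 and 12.7 CPM in AXL KO. All AXL KO libraries were far above the highest WT library, WT replicate 2, with a log2 fold change of 3.25 ± 0.37 (SE; edgeR adjusted p = 0.000304). Il2rg, the common gamma chain, rose 2.0-fold from 3.97 ± 0.957 to 7.92 ± 0.941 CPM (edgeR adjusted p = 0.00391). The transcription factor genes Stat5a and Stat5b, which act downstream, rose 2.50- and 1.85-fold, Stat5a from 38.5 ± 3.37 to 96.1 ± 26.4 CPM. The part of interleukin 15 signalling in the rise of Stat5a and Stat5b was not tested. Il21r, the receptor of interleukin 21, rose 1.72-fold from 3.37 ± 0.305 to 5.79 ± 0.313 CPM. In the whole list of common gamma chain cytokines, receptors and kinases, 11 of 16 genes were tested, 8 were higher and 2 lower, against 19.1% and 18.3% of all tested genes, and the median log2 fold change was 0.88. The lower ones were Jak3, the kinase bound to the common gamma chain, and Il4ra, both chosen for mention after their values were seen, at -0.42 and -0.23. Neither was called without WT replicate 2 or 3 or AXL KO replicate 1 or 3. Among the 8 higher genes of this list, Il7 passed the filter on low counts only through the AXL KO libraries. It could hardly be called lower, so this count is partly set by the filter. The cytokine genes Il2, Il4, Il9 and Il21 were too low to test.

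**Figure D3:**
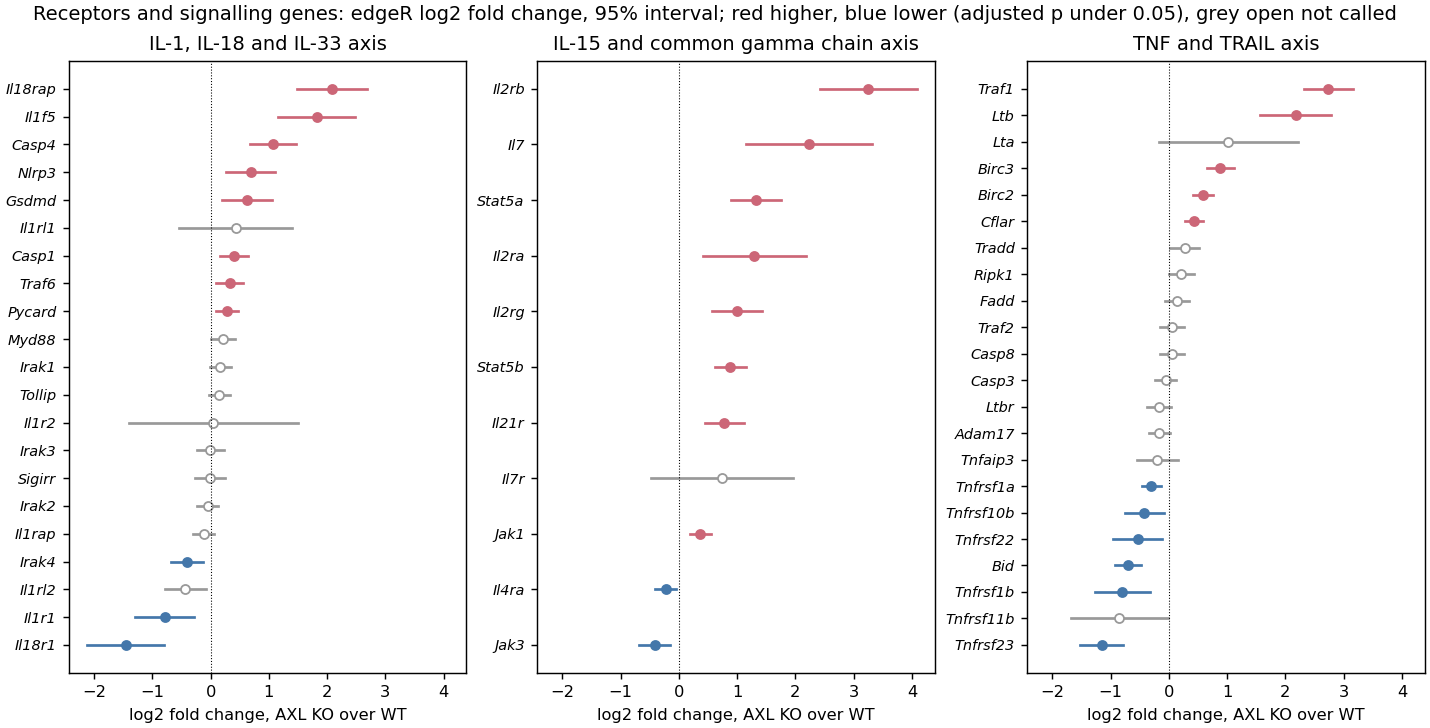
Log2 fold change of AXL KO over WT (x axis) with 95% intervals from edgeR for the tested receptors and signalling genes of the 3 axes, red where called higher, blue where called lower and open grey where not called. Il2rb and Traf1 are the highest points of their lists, and all 3 lists hold genes called in each direction.

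Genes around TNF and TRAIL also went both ways, with 5 of 22 tested genes higher, 6 lower and a median of -0.00 on the log2 scale. These shares are near the 19.1% and 18.3% of all tested genes. Without AXL KO replicate 3, 2 were lower, and without AXL KO replicate 1, WT replicate 3 or with limma-voom, 3, 3 and 4. Receptors of both ligands were among the lower genes. Tnfrsf1a, the main TNF receptor, fell from 279 ± 5.77 to 227 ± 12.2 CPM (-0.30, edgeR adjusted p = 0.0101), and Tnfrsf1b, the second TNF receptor, from 39.7 ± 3.61 to 22.8 ± 8.21 CPM (-0.80, edgeR adjusted p = 0.0167). Tnfrsf10b, the death receptor for TRAIL in mice, was at 14.3, 20.5 and 20.6 CPM in WT and at 13.1, 14.1 and 14.1 CPM in AXL KO (-0.42, edgeR adjusted p = 0.0483). Tnfrsf23, a decoy receptor for TRAIL, fell 2.23-fold, from 15.5 ± 2.43 to 6.95 ± 1.18 CPM (edgeR adjusted p = 0.000924). The calls of the first 3 receptors were not firm. That of Tnfrsf1a ended without AXL KO replicate 3 (0.0577), that of Tnfrsf1b without WT replicate 3 (0.0649) or AXL KO replicate 1 (0.0620) or 3 (0.0548), and that of Tnfrsf10b with limma-voom (0.0574) and without any one library other than WT replicate 1 (0.0708 to 0.165).

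Among adaptors and survival genes of the same list, Traf1, an NF-kappaB-inducible adaptor, rose 6.65-fold from 4.19 ± 0.385 to 27.9 ± 6.90 CPM (edgeR adjusted p = 1.99e-05). The inhibitor of apoptosis genes Birc3 and Birc2 rose 1.85- and 1.5-fold, Birc3 from 9.18 ± 0.668 to 16.9 ± 0.683 CPM. Ltb, lymphotoxin beta, rose 4.51-fold from 1.23 ± 0.462 to 5.6 ± 1.1 CPM.

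Markers of NK and cytotoxic cells, T cells and dendritic cells were mostly higher in the AXL KO libraries. Of 8 NK and cytotoxic markers 8 were higher, with a summed level of 2.39 to 4.62 CPM in WT and 29.3 to 40.9 CPM in AXL KO, with the smallest p for Gzma and Klrk1. Of 8 T cell markers 7 were higher (summed level 8.68 to 12.2 and 22.2 to 24.2 CPM, smallest p for Lck and Cd3g), and of 8 dendritic cell markers 6 (17.3 to 18.6 and 29.6 to 36.0 CPM, smallest p for Itgax and Flt3). Across all tested genes 19.1% were called higher and 18.3% lower. None of these 24 markers was at 0 in all libraries. Several of them, Gzma (8 to 12 counts in WT) and Klrk1 (7 to 22) included, would not have passed the filter on low counts on the WT libraries alone. Such markers were tested because they were high in AXL KO and could hardly be called lower, so these counts of higher markers are partly set by the filter. Il2rb, Il2rg, Il18rap and Ltb are expressed by lymphocytes, Tnfsf10 by NK cells among others, and Il15 by dendritic cells among others. The part of these cells in the rise of each gene was not tested.

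AXL KO replicate 2, which stood above the other AXL KO libraries for Il1rn and Il33, also stood above them in several marker sums. Summed macrophage markers were at 1002, 673 and 707 CPM in WT and at 526, 1024 and 460 CPM in AXL KO replicates 1, 2 and 3. AXL KO replicate 2 was the highest of all, and WT replicate 1 was the next. Lyz2, named here for its level, held much of each sum, at 652, 377 and 425 CPM in WT and 237, 665 and 213 CPM in AXL KO. Among the macrophage markers Fcgr1 was higher, and Cd14, chosen for mention after its value was seen, was lower. Most markers of this list were not called. Summed fibroblast markers were at 1755, 1209 and 1116 CPM in WT and 765, 1393 and 801 CPM in AXL KO, with 0 of 8 called. Here AXL KO replicate 2 lay within the WT range. The collagen genes Col1a1 and Col1a2, named here for their level, dominate this sum. Neutrophil markers were low, at 4.82 to 9.57 and 4.76 to 9.45 CPM in sum, with AXL KO replicate 2 the highest of its group, Camp at 0 in all libraries and 1 of 5 tested markers lower (Cxcr2, a call lost with DESeq2, with a replicate block and without WT replicate 1 or 3 or AXL KO replicate 1 or 3, at adjusted p of 0.0997 to 0.147). Cxcr2 had 25, 13 and 18 counts in WT and 5, 13 and 8 in AXL KO. It would not have passed the filter on low counts on the AXL KO libraries alone. It could hardly be called higher, so this lower call is partly set by the filter. Of 8 endothelial markers 7 were lower, with the smallest p for Sox18 and Plvap, at 298 to 332 CPM in sum in WT and 173 to 231 CPM in AXL KO. Of 7 tested epithelial markers 5 were lower and 1 was higher, with the smallest p for Krt7 (35.0 ± 2.21 and 9.55 ± 0.455 CPM) and Epcam, at 11533 to 12838 CPM in sum in WT and 11558 to 13753 CPM in AXL KO, a sum that Erbb2 dominates. Beside these counts of called markers, 19.1% of all tested genes were called higher and 18.3% lower. The part of all these cell types in the levels of Il1rn, Il33, Il1r1 and Tnfrsf1b was not tested.

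**Figure D4:**
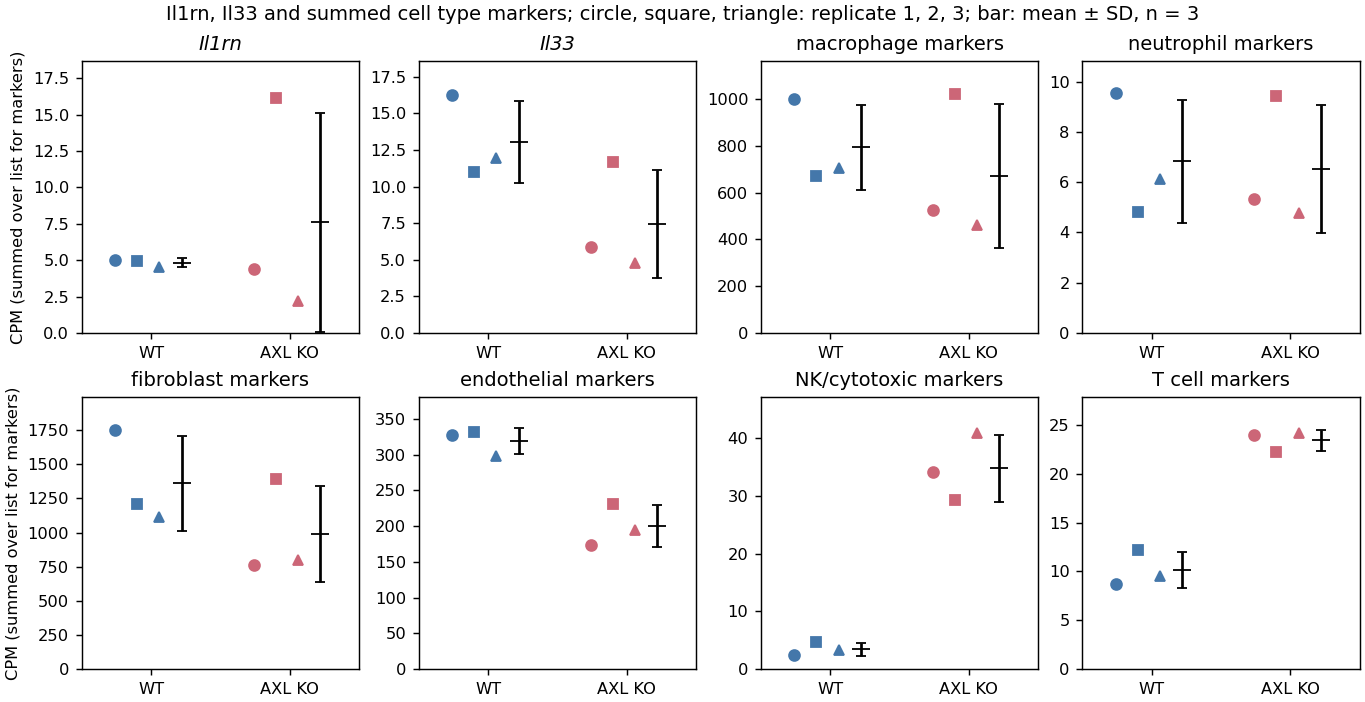
Il1rn, Il33 and the summed levels of 6 lists of cell type markers (CPM, y axis, from 0) in each library, 1 symbol per replicate number, with mean ± SD, n = 3. AXL KO replicate 2 (red square) is the highest AXL KO library for Il1rn, Il33 and for macrophage, neutrophil, fibroblast and endothelial markers, and NK and T cell markers are separate between the groups.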

How the data were processed

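Bulk RNA-seq libraries of 3 WT and 3 AXL KO grafts were grouped by sample title. The authors' count files hold raw counts per gene, made with CASAVA 1.8, TopHat2 2.0.10 on GRCm38 and HTSeq 0.5.3, per the submitters' processing notes; their settings and the use of strand were not stated there. Rows naming no gene (33.1% to 34.4% of counted lines, mostly non-unique alignments) were left out. The authors' deposited table also gives counts divided by size factors (a signal), log2 fold changes, Wald scores and p-values from DESeq2 1.4.5, and was only quoted. Counts were tested with edgeR 4.0.16 in R 4.3.3 (filterByExpr with minimum count 10, TMM, quasi-likelihood test, Benjamini-Hochberg adjustment over all 14850 tested genes, threshold 0.05, group only). Fits were tested on simulated data. Alternatives were DESeq2 1.42.0, its size factors within edgeR, limma-voom 3.58.1, no filter, a replicate block, left-out libraries, a threshold of 0.01 and another gene length. Intervals are 95%. Gene positions and exon lengths came from GENCODE M21. The 10 genes and all lists were chosen with earlier results of these data known. The text names those genes, the listed receptors, the 5 genes of each pathway list and 2 of each marker list with the smallest p, and the 3 nearest profiles of 3 called genes; not all of these are described. Other genes named are said to be so, overlap one of the 10, check the tissue or were too low to test. The result of 1 macrophage marker is not reported here.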

Additional observations from a re-analysis of the deposited data

How the results depend on the processing

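Il15, Il18bp and Tnfsf10 were called higher in all 11 refits (the highest adjusted p were 0.0329, 0.000265 and 0.000134) and at an adjusted p under 0.01, and the count of higher cytokine genes was 3 without each library. The count of lower ones was 1 with DESeq2, 1 with limma-voom, 1 with no filter on low counts and 0 to 1 without single libraries. Among the 6 cytokine genes neither called nor Il33, Il1a, Il1rn and Tnf changed sign when single libraries were left out. Over the pathway lists, the interleukin 1 list had 3 higher and 1 lower at an adjusted p under 0.01, and 3 to 7 and 1 to 3 without single libraries. The interleukin 15 list had 1 lower with no filter, 0 at 0.01 and 0 to 2 without single libraries, and 7 to 8 higher. The TNF and TRAIL list had 2 lower at 0.01, 2 to 6 without single libraries, and 5 to 7 higher. Over all tested genes 1610 were higher and 1464 lower at 0.01, and 2000 to 2846 and 1733 to 2828 without single libraries. The replicate numbers did not pair the libraries: deviations from the group means correlated at -0.058, -0.125 and 0.088 for same-numbered libraries 1, 2 and 3. With the replicate number as a block, 3 cytokine genes were higher and 0 lower, the interleukin 15 list had 1 lower, and all genes gave 2458 higher and 2373 lower. Of 46 named genes, 37 kept their side of the threshold under every setting tried, and none called under the test reported changed sign. The 3 libraries per group and the 10 to 54 counts of Tnf, Il18, Il1a and Il1b limit what could be detected for these genes, and whether the counts of changed genes without a library reflect fewer samples was not tested.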

Other observations

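Inflammasome genes were measured alongside the cytokines they process, and the 3 below were chosen after their values were seen. Nlrp3, an inflammasome sensor, rose from 1.62 ± 0.110 to 2.62 ± 0.311 CPM (edgeR adjusted p = 0.0189), Pycard, its adaptor, from 43.4 ± 2.78 to 52.6 ± 3.31 CPM (0.0280) and Gsdmd, the pore-forming substrate of inflammatory caspases, from 2.94 ± 0.361 to 4.53 ± 0.865 CPM (0.0299). None of these 3 calls held without AXL KO replicate 3 or without WT replicate 3, nor at an adjusted p under 0.01. Il7, a cytokine of the common gamma chain family that supports lymphocyte survival, was also chosen after its value was seen. It rose from 0.105 ± 0.0603 to 0.509 ± 0.156 CPM (log2 fold change 2.23 ± 0.48, SE, edgeR adjusted p = 0.00667). Il7 had only 2 to 5 counts in WT and 11 to 19 in AXL KO libraries. It passed the filter on low counts only through the AXL KO libraries and could hardly be called lower. The receptor gene Il7r lay at 0.74 ± 0.54 (SE) and did not pass the test.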
